A study of Mus musculus with 4 samples.

Results

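Ly6e and 6 other genes of the LY6 family were followed in young and old intestinal stem cells (ISCs). The 7 members are Ly6e, Lypd8, Ly6a, Ly6c1, Ly6d, Ly6k and Ly6g6c, taken by gene symbol from the 52459 genes listed in the count table, and all 7 are listed there. They were chosen with results of the same comparison of ages in view, so their levels and fold changes are given as a description, with no test. ISCs were sorted from the small intestine of wild type (WT) C57/Bl6 mice by surface markers, as cells negative for CD31 and CD45 and positive for EPCAM, with high CD44 and EPHB2, medium CD24 and low GRP78 (the SM6 strategy, which also takes CD166-positive cells). Group ISC_2mth held 2 libraries from mice of 2 months (young) and group ISC_22mth 2 libraries from mice of 22 months (old), and each library was made from a pool of 5 animals. RNA was amplified along the whole transcript before sequencing, and the values are reads counted in the exons of each gene. All mice were wild type, and the labels name no treatment. The same replicate number in both ages does not mean the same animals, and the spread given here is the spread between 2 pools.

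LY6 proteins are small proteins built on a fold of short loops, the three-finger or LU domain, that is held together by paired cysteines. Most are tethered to the outer face of the cell membrane by a glycosylphosphatidylinositol (GPI) lipid anchor, and some are secreted. Several are long-standing markers of lymphocytes, monocytes or stem cells, and some are induced by interferon. In the mouse most of the LY6 genes lie in one cluster on chromosome 15. Ly6e encodes a widely expressed member that restricts the entry of some viruses and serves as the receptor of syncytin-A, the fusion protein of the mouse placenta. Ly6a encodes Sca-1, known from blood stem cells and from the regenerating gut epithelium, and Ly6c1 encodes a Ly-6C antigen of monocytes and endothelium. Ly6d is a marker of B lymphoid progenitors and keratinocytes, Ly6k is known from the testis, and Ly6g6c lies in the major histocompatibility region. Lypd8 is released from gut epithelium into the lumen, where it binds the flagella of bacteria and keeps them away from the epithelium.

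The feature that the 7 genes share in sequence is the end of the LU domain, where 2 neighbouring cysteines are followed, after 4 other residues, by a cysteine and an asparagine. A search of the longest coding sequence of each gene for these 8 codons found them in frame exactly once in all 7. The stretches are shown because they are what makes these genes one family and because they show how far the members differ. They were read from the GENCODE vM21 transcripts of GRCm38, 5′ to 3′ on the strand of the gene, with the 3 cysteine codons in capitals.
Ly6e: TGCTGCcaaagctccttcTGCaac
Lypd8: TGCTGCcaaggagagtccTGCaat
Ly6a: TGTTGCcaggaagacctcTGCaat
Ly6c1: TGTTGCagcgaagacctcTGCaat
Ly6d: TGCTGCcagactgacctaTGCaac
Ly6k: TGCTGTcaatgggactcaTGTaat
Ly6g6c: TGCTGTgacaaggataacTGTaac
Of the 24 bases, Ly6a and Ly6c1 shared 21, the most of any pair, and the other pairs went down to 12. Ly6e shared 17 with Ly6d, 17 with Lypd8, 15 with Ly6a and 13 with Ly6c1. The coding sequence of Ly6e has 136 codons, 10 of them for cysteine, and that of Ly6a has 134 codons with 12 for cysteine. Lypd8 is the longest, with 255 codons and 18 for cysteine, while the other 4 have between 127 and 154 codons and between 11 and 13 for cysteine. On GRCm38 the stretch of Ly6e lies at chr15:74958594-74958617 on the plus strand, in exon 4 of 4 and codons 98 to 105, and that of Lypd8 at chr11:58384732-58384755 on the plus strand, in exon 5 of 7. The stretch of Ly6a lies at chr15:74995352-74995375 on the minus strand, in exon 3 of 3.

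Sequencing depth was between 11662654 and 15975698 counts per library, and 3852178 to 4593004 counts remained after the mitochondrial genome was set aside. The mitochondrial share was 62.6% and 65.7% in the young pools against 73.8% and 72.9% in the old pools. Levels are given as CPM (reads of a gene per 1000000 counted reads) after normalization by the TMM method, which sets the library scale by the bulk of the genes and not by the total. A gene was tested if a pool or more had over 5 reads of it and over 1 CPM of the library's total counts, before TMM, which held for 13692 genes, and a gene was called at a false discovery rate (FDR) under 0.05 in edgeR's quasi-likelihood test. Of these genes 223 were called higher and 86 lower in old ISCs. When libraries were scaled by their total counts, which include the mitochondrial share, the split was 96 higher and 4536 lower, and the median change of all genes moved to -0.49 on the log2 scale. Of the genes tested, 16.9% had an unadjusted p under 0.05. All 6 stem cell markers looked for were present in every library, with 3599, 3236, 2758 and 2518 reads of Lgr5 and 1271, 1225, 1147 and 1224 reads of Smoc2 in the 2 young and then the 2 old pools, and 0 of the 6 were called. Axin2, a target of Wnt signalling, had 2156, 1932, 1348 and 1204 reads and a log2 fold change of -0.46 (SE 0.12, FDR 0.051), and it was called lower in 12 of the 14 alternatives. Sox9 had a log2 fold change of -0.28 (FDR 0.25) and Ascl2 one of 0.33 (FDR 0.20). With libraries scaled by total counts, Axin2, Lgr5, Olfm4 and Sox9 were called lower. In RNA from whole pools, fewer cells of a type and less RNA per cell cannot be told apart.

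Ly6e was higher in old ISCs. Reads on Ly6e numbered 572 and 536 in the young pools and 1720 and 1529 in the old pools. These are levels of 39.4 and 35.5 CPM in young ISCs and 130 and 125 CPM in old ISCs, so the groups did not overlap and the pools of each age lay close together. The mean rose from 37.4 ± 2.79 CPM (SD, n = 2) to 127 ± 3.48 CPM (SD, n = 2), a 3.41-fold difference with a log2 fold change of 1.77 and a standard error (SE) of 0.13. The log2 difference between pools of one age was 0.15 in young and 0.055 in old ISCs, against medians over all genes tested of 0.206 and 0.238 in absolute size. Those medians cover genes of all depths, many with fewer reads than Ly6e.

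As a share of total counts, without TMM, Ly6e had 49.0 reads per 1000000 counted reads in ISC_2mth replicate 1, with an exact (Clopper-Pearson) 95% binomial interval of 45.1 to 53.2. The share in ISC_2mth replicate 2 was 40.0, with an interval of 36.7 to 43.6. In the old pools the shares were 107.7 and 107.4, with intervals of 103 to 113 and 102 to 113. On this scale too the old shares lay above the young ones. The amplified reads carry no molecular identifiers and are not separate molecules, and these intervals cover counting error only. Fitted on the same scale of total counts, the log2 fold change of Ly6e was 1.27, and over all 14 alternative settings it stayed between 1.27 and 1.86.

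**Figure D1:**
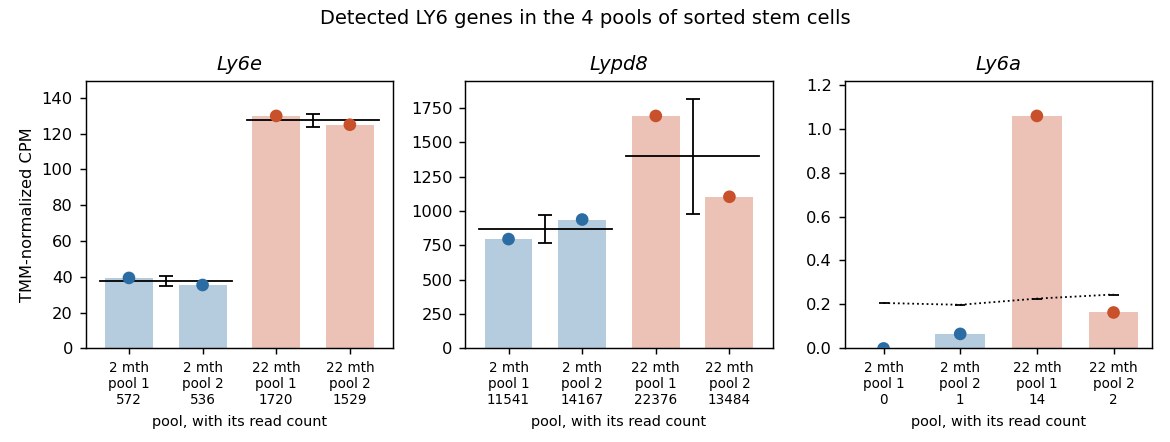
Level of Ly6e, Lypd8 and Ly6a (vertical axis, TMM-normalized CPM, from 0) in each of the 4 pools, with the read count under each pool. Black lines show the mean and SD of the 2 pools of an age for Ly6e and Lypd8, and the dotted line in the Ly6a panel marks the level of 3 reads in each library. Ly6e lies at 39.4 and 35.5 CPM in young and at 130 and 125 CPM in old pools, the old pools of Lypd8 lie at 1691 and 1103 CPM, and Ly6a passes the level of 3 reads in 1 pool.

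Lypd8 was the most abundant member and was also higher in old ISCs, with a wide spread between the old pools. Its reads numbered 11541 and 14167 in the young pools and 22376 and 13484 in the old pools, so the raw counts of the ages overlapped. After normalization the levels were 795 and 937 CPM in young ISCs and 1691 and 1103 CPM in old ISCs, and these did not overlap. The mean was 866 ± 101 CPM (SD, n = 2) in young and 1397 ± 416 CPM (SD, n = 2) in old ISCs, a 1.61-fold difference with a log2 fold change of 0.69 (SE 0.14). The old pools differed from each other by 0.62 on the log2 scale, nearly as much as the ages, and 13.8% of the genes tested had old pools at least that far apart. That share covers genes of all depths, most with fewer reads than Lypd8, and genes of like depth were not compared. Without ISC_22mth replicate 1 the log2 fold change of Lypd8 was 0.35, and with libraries scaled by total counts it was 0.20. Per 1000000 counted reads Lypd8 had 990 and 1058 reads in young and 1401 and 947 in old pools, so on this scale the ages overlapped.

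**Figure D2:**
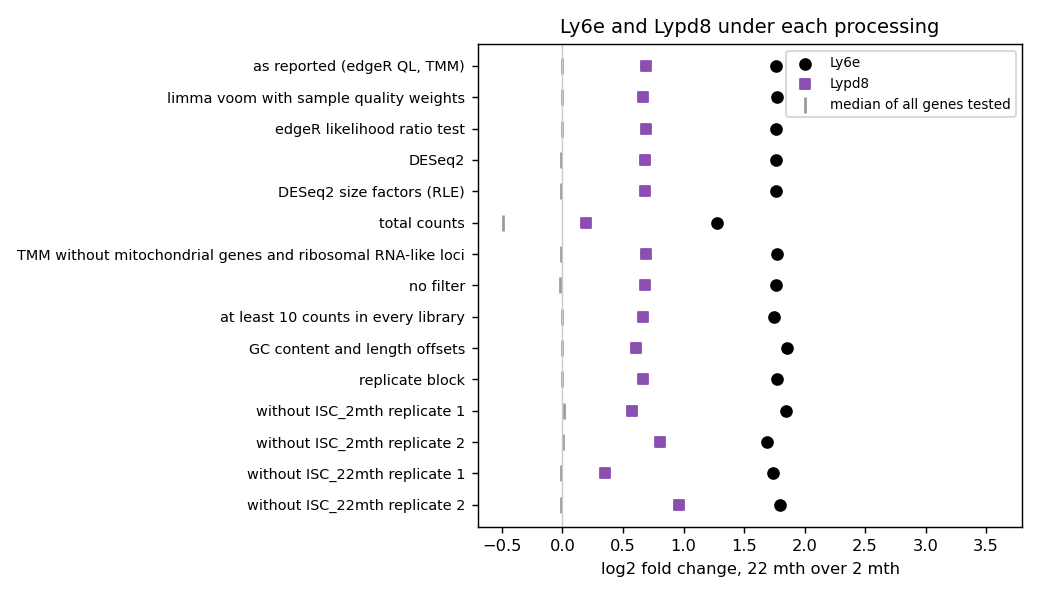
Log2 fold change of old over young ISCs (horizontal axis) for Ly6e (circles) and Lypd8 (squares) as reported and under each of the 14 alternative settings (rows), with grey ticks for the median of all genes tested. Ly6e lies between 1.27 and 1.86 in every row, while Lypd8 lies between 0.20 and 0.97.

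The 2 members with enough reads to be tested, of 7, were among the genes called higher, and since the members were selected on their fold changes in this same comparison, nothing is read from that count. Over all genes tested 1.63% were called higher and 2.26% in either direction, and 24% had both old pools above both young pools, as these 2 genes had.

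Per kilobase of exon, the scale on which genes can be set against each other, Ly6e had a level of 10.4 and 9.37 CPM per kb in young and 34.3 and 33.0 CPM per kb in old ISCs. Its mean level of 9.89 CPM per kb placed it at rank 1387 of 13236 genes with a known length in young ISCs, and 33.7 CPM per kb placed it at rank 266 in old ISCs. The median gene stood at 2.17 CPM per kb in young and 2.12 in old ISCs. Lypd8 had a level of 619 and 730 CPM per kb in young and 1317 and 859 CPM per kb in old ISCs, at rank 12 in young and 11 in old ISCs by its mean. Within single libraries the level of Lypd8 per kb was 59.5 and 77.9 times that of Ly6e in the young pools and 38.3 and 26.0 times in the old pools. This ratio does not depend on how the libraries are scaled, and it was lower in both old pools than in both young pools. The size of the ratio, like the ranks, does depend on the exon lengths, which were merged over all annotated transcripts of a gene. Which transcripts the cells held was not tested. The exons of Ly6e (ENSMUSG00000022587.14, chr15:74955051-74959905, plus strand) add up to 3784 bp and those of Lypd8 (ENSMUSG00000013643.13, chr11:58379043-58390728, plus strand) to 1284 bp. Neither gene overlaps an exon of another gene, and 0% of their 50-nt stretches occurred in transcripts of other genes.

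**Figure D3:**
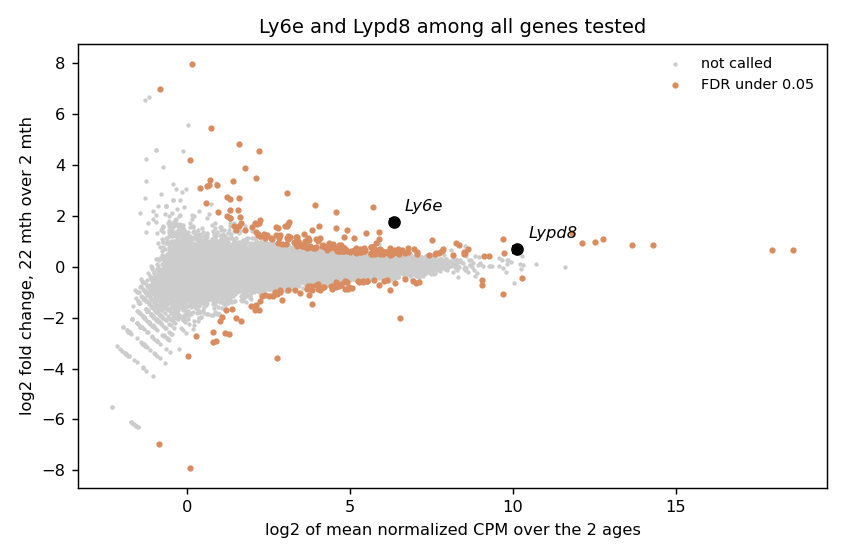
Log2 fold change of old over young ISCs (vertical axis) against the log2 of the mean normalized CPM over both ages (horizontal axis) for the 13692 genes tested. Each point is a gene, orange points have an FDR under 0.05, and black points mark Ly6e at 1.77 and Lypd8 at 0.69, which were chosen with these values known.

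The other members were at or near 0. Ly6a had 0 and 1 reads in the young pools and 14 and 2 reads in the old pools, so 14 of its 17 reads came from ISC_22mth replicate 1 and the other 3 libraries were under the limit of 3 reads. Its highest value was 0.876 CPM of total counts, in ISC_22mth replicate 1, so Ly6a did not pass the filter, which uses that scale, and was not tested. In the 2 alternatives that held Ly6a its log2 fold change was 3.87, and it was not called in either. The ratio of its level in old over young pools was 18.6, with a 95% counting interval of 2.89 to 781 that rests on 16 against 1 reads. Without ISC_22mth replicate 1 it was 4.85, with an interval of 0.252 to 286. Of the 50-nt stretches of Ly6a, 19.0% also occurred in other genes, most of them in Ly6c1, so its few reads are uncertain in origin. Genes known to rise with Ly6a in regenerating gut epithelium were as scarce. Anxa1, a regulator of inflammation, had 1 read in all. Clu, a secreted chaperone, had 4, 3, 0 and 0 reads and Gja1, a gap junction protein, had 1, 1, 9 and 0, and none of these 3 genes was tested.

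Ly6c1, Ly6d, Ly6k and Ly6g6c had 0 reads in each of the 4 libraries. A count of 0 allows up to 3 reads, which corresponds to between 0.198 and 0.245 normalized CPM, so a level under that would not have been detectable at this depth. How reads that fit several genes were counted is not given in the sources used here, and 32.8% of the stretches of Ly6c1 occurred in other genes, mainly Ly6c2, and 32.7% of those of Ly6k in Gm17189, which overlaps it on the other strand. For Ly6d and Ly6g6c this share was 0%. The order of the members by level was thus Lypd8, then Ly6e, then Ly6a with a few reads, mostly in 1 old pool, and then 4 genes without reads.

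Family genes outside the 7 were sparse. Of 41 other genes of the LY6 and uPAR family that were looked for, 37 were listed, 18 of them had 0 reads in all libraries and 28 had at most 3 in every library. The reads of all 37 together came to 78 and 79 in the young and 79 and 62 in the old pools. Only 3 passed the filter. By edgeR's quasi-likelihood test 0 were called and 0 had an unadjusted p under 0.05, and 0 were called in any of the 14 alternatives. Over all genes tested 2.26% were called and 16.9% had such a p, so counts of 0 among so few genes say little. Cd177, a surface protein of neutrophils, had 18, 11, 31 and 13 reads and a log2 fold change of 0.80 (SE 0.62, FDR 0.55). Cd59a, which protects cells from complement, had 16, 13, 20 and 15 reads and a log2 fold change of 0.48 (SE 0.63, FDR 0.75). Lypd1, a modulator of acetylcholine receptors, had 14, 14, 8 and 13 reads and a log2 fold change of -0.19 (SE 0.73, FDR 0.93), and its exons overlap those of Gpr39. Lypd1 passed the filter through young pools alone, so its direction is no finding. At these counts the standard errors were about as large as the log2 fold change of Lypd8.

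The genes around Ly6e on chromosome 15 were also nearly silent. Of 34 genes whose start lies within 250 kb of that of Ly6e, 4 are members and 29 of the rest are listed in the table. Of these 29 genes 20 had 0 reads in all libraries, and the reads of all 29 came to 34 and 29 in the young and 19 and 22 in the old pools. Jrk, a nuclear protein with a DNA-binding domain at the far end of this window, was the only one tested, with 23, 17, 9 and 16 reads and a log2 fold change of -0.45 (SE 0.65, FDR 0.78). Among family genes of the window that are not members, Ly6i had 0, 3, 2 and 0 reads, and Ly6c2 and Ly6g had 0 in all libraries. The reads on Ly6e were not accompanied by more reads on the listed genes beside it that are not members. Ly6a, a member in this window, had 0, 1, 14 and 2 reads. With so few reads on the genes around Ly6e, a change shared by the region could not be judged.

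**Figure D4:**
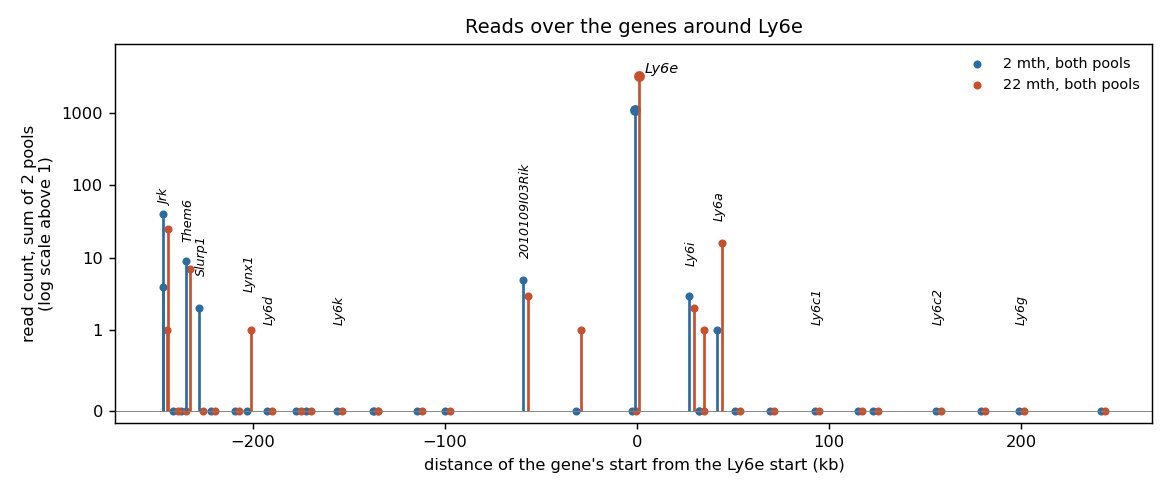
Read counts (vertical axis, log scale above 1) summed over the 2 pools of each age for the listed genes around Ly6e, placed by the distance of their start from that of Ly6e (horizontal axis, kb). Blue points are young and red points old ISCs, and the pair for each gene is drawn slightly apart. Ly6e stands far above the rest in both ages, while every other gene of the window has few reads or none.

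Genes that work with LY6 proteins were counted next. All gene lists below were chosen with earlier results of these data known, so their counts are given as a description. The GPI anchor is built and attached by the Pig and Dpm proteins and trimmed by the Pgap proteins. Of 30 such genes 28 were tested and 0 were called by edgeR's quasi-likelihood test, against 2.26% of all genes tested. In that test 3 of the 28 had an unadjusted p under 0.05, against 16.9% of all genes tested. Nothing is read from these counts. Among the 28 genes 11 had a log2 fold change above 0 and 17 below 0, with a median of -0.07, against a median of -0.0049 over all genes tested. Dpm1, part of the enzyme that makes the mannose donor, had 136, 124, 67 and 73 reads and a log2 fold change of -0.67 (SE 0.24, FDR 0.16). Pign, which modifies the mannose core, had 424, 439, 324 and 233 reads and a log2 fold change of -0.42 (SE 0.16, FDR 0.18). Pigb, a mannosyltransferase, had 281, 294, 317 and 303 reads and a log2 fold change of 0.33 (SE 0.16, FDR 0.29). With libraries scaled by total counts, 13 of the 28 were called lower, against 33.1% of all genes tested, where the median of the list was -0.56 and that of all genes -0.49.

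Syncytin-A, the ligand of the Ly6e protein, is encoded by Syna, a gene of retroviral origin. Reads on Syna numbered 62 and 61 in the young and 177 and 149 in the old pools, that is 4.27 and 4.04 CPM against 13.4 and 12.2 CPM, so the ages did not overlap. The log2 fold change was 1.62 (SE 0.23). Syna was called higher by edgeR's quasi-likelihood test (FDR 0.00053) and in all 14 alternatives, with values from 1.13 to 1.69. It was chosen with earlier results of these data known, so these calls are a description. Of its 50-nt stretches 13.3% also occurred in Gm42884, so part of its reads could be shared with that gene. Synb, which encodes the other syncytin of the mouse placenta, had 0 reads in all libraries.

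Ly6e and Ly6a are both known to respond to interferon, so other interferon-inducible genes were set beside them. This list too was chosen with earlier results known, and its counts are no independent support. Of 26 such genes 22 were tested and 3 were called higher by edgeR's quasi-likelihood test, while 20 had a log2 fold change above 0, with a median of 0.96. Over all genes tested 1.63% were called higher, and 12 of the 22 had an unadjusted p under 0.05 against 16.9% of all genes. Of the 22 genes, 7 passed the filter through old pools alone, where they were high, Trim30a among them, so their sign and part of these counts follow from the filter. Over the 11 genes with at least 10 reads in every library the median was 0.54, with 2 called. Oasl2, an antiviral protein of the oligoadenylate synthetase family, had 133 and 126 reads in the young and 863 and 155 in the old pools, with a log2 fold change of 2.16 (SE 0.43, FDR 0.011). Trim30a, a regulator of inflammatory signalling, had 5, 4, 61 and 15 reads and a log2 fold change of 3.23 (SE 0.71, FDR 0.021). Ifitm3, which blocks viral fusion, had 626, 475, 942 and 700 reads and a log2 fold change of 0.79 (SE 0.16, FDR 0.012). The call of Oasl2 was lost with DESeq2 (FDR 0.45) and without ISC_22mth replicate 1 (FDR 0.23), and that of Trim30a with limma voom (FDR 0.12) and without ISC_22mth replicate 1 (FDR 0.43). That of Ifitm3 was lost with total counts (FDR 0.19) and without ISC_2mth replicate 2 (FDR 0.088). Most of the difference in this list came from 1 pool. The median log2 difference between ISC_22mth replicate 1 and replicate 2 was 1.08 over the list, against 0.055 for Ly6e. Of the 22 genes, 6 passed the filter through ISC_22mth replicate 1 alone. Their peak in that pool, and part of this median, follow from the filter. Without ISC_22mth replicate 1 the median log2 fold change of the 16 list members then tested was 0.10, while the log2 fold change of Ly6e was 1.74. Without ISC_22mth replicate 2 the median of the list was 1.44, and the log2 fold change of Ly6e was 1.80. With libraries scaled by total counts the median of the list was 0.47. The 14 reads of Ly6a lay in the same pool as the high values of Oasl2 and Trim30a.

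**Figure D5:**
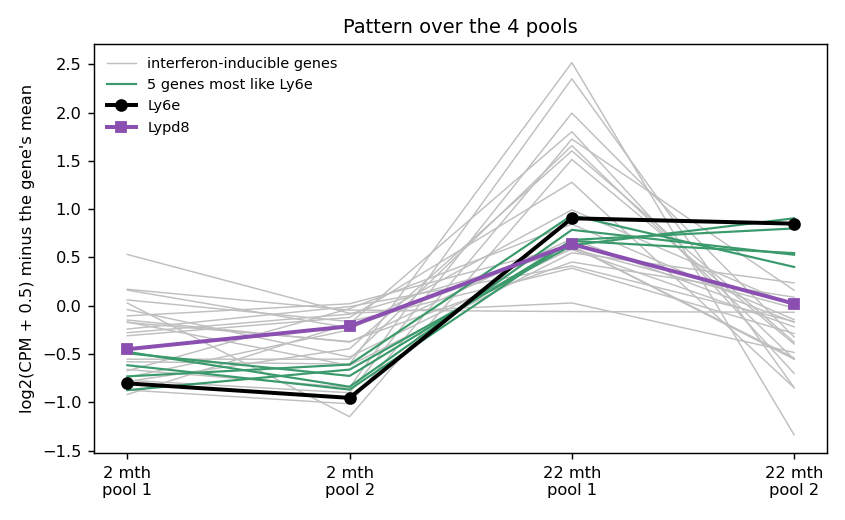
Pattern over the 4 pools of Ly6e (black), Lypd8 (purple), the 22 interferon-inducible genes tested (grey) and the 5 genes most like Ly6e (green). The vertical axis is log2(CPM + 0.5) minus the mean of each gene, and lines join the pools of one gene only to show its pattern. Ly6e is nearly level between the old pools, with a difference of 0.055, while most interferon-inducible genes peak in ISC_22mth replicate 1. Of the 22, 6 passed the filter through that pool alone, so their peak there follows from the filter.

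The genes whose pattern over the 4 libraries was most like that of Ly6e were sought among 6124 genes with a mean of at least 10 CPM. Likeness was the root mean square (RMS) difference from Ly6e in centred log2(CPM + 0.5), and it is a description over 4 libraries that share depth and amplification. The closest was mt-Tl1, a mitochondrial transfer RNA, with an RMS difference of 0.154 and levels of 13.6, 11.3, 34.1 and 37.0 CPM. Ppic, a peptidyl-prolyl isomerase, followed with 0.207 and levels of 7.58, 8.87, 22.4 and 27.2 CPM. The other 3 were Acot1, an acyl-CoA thioesterase (0.244), Cyp2c65, a cytochrome P450 (0.272), and Sis, the sucrase-isomaltase of the enterocyte brush border (0.286). All 5 were higher in both old pools than in both young pools, which the choice by likeness fixes. Stretches shared with other genes made up 19.2% of Acot1 and 20.6% of Cyp2c65, so their counts are less certain.

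Markers of other cells were counted beside these results. The marker lists were chosen with earlier results of these data known, so their counts are a description and no independent support. Of 8 enterocyte markers 3 were called higher by edgeR's quasi-likelihood test, against 1.63% of all genes tested, and 6 had an unadjusted p under 0.05, against 16.9%. The median log2 fold change of the 8 was 0.84, and their summed level was 425 and 551 CPM in young and 914 and 781 CPM in old pools. Sis had 466, 529, 1364 and 868 reads with a log2 fold change of 1.38 (SE 0.16, FDR 3.3e-05). Fabp1, a fatty acid carrier of absorptive cells, had 263, 251, 1543 and 730 reads with a log2 fold change of 2.35 (SE 0.22, FDR 2.4e-06). Fabp2, its intestinal relative, had 2334, 3986, 5380 and 4898 reads with a log2 fold change of 0.93 (SE 0.16, FDR 0.0040). The other 5 were not called, with log2 fold changes of 0.84 for Alpi (FDR 0.077), 0.85 for Apoa1 (FDR 0.17), 0.41 for Slc5a1 (FDR 0.075), 0.49 for Apoa4 (FDR 0.57) and -0.013 for Vil1 (FDR 0.97). The call of Fabp2 was lost with DESeq2 (FDR 0.22). The median of the 8 was 0.46 without ISC_2mth replicate 1 and 1.30 without ISC_2mth replicate 2. It was 0.45 without ISC_22mth replicate 1, 1.01 without ISC_22mth replicate 2 and 0.36 with total counts. Fabp1, Fabp2 and Sis were thus higher in the same pools as Ly6e, and the part of enterocyte RNA in the differences of Ly6e and Lypd8 was not tested.

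The summed level of 16 leukocyte markers was 10.95 and 13.6 CPM in young and 22.1 and 22.6 CPM in old pools, and 8 markers were at 0 in all libraries. Most of this sum was Itgam, and the other 15 markers together came to 0.758 and 0.662 CPM in young and 2.95 and 1.96 CPM in old pools. Ptprc, which encodes the CD45 used in the sort, had 0, 0, 2 and 0 reads. Itgam, an integrin of myeloid cells, had 148, 196, 254 and 252 reads with a log2 fold change of 0.78 (SE 0.18, FDR 0.030), and Ccr2, a chemokine receptor of monocytes, had 0, 0, 13 and 16 reads. The call of Itgam was lost with DESeq2 (FDR 0.074), with total counts (log2 fold change 0.30, FDR 0.25) and without ISC_2mth replicate 1 (FDR 0.29). Ccr2 passed the filter through ISC_22mth replicate 2 alone, so its direction was fixed by the filter, and it was called higher (FDR 0.034), but not with limma voom, with the GC content and length offsets or without either young pool. Endothelial markers summed to between 0.827 and 2.05 CPM, with Cdh5, Kdr, Tie1 and Emcn at 0 in all libraries, and mesenchymal markers to between 0.572 and 2.25 CPM. The part of the leukocyte markers in the difference of Ly6e was not tested.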

How the data were processed

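Sorted ISCs were profiled in 4 libraries of 5 pooled animals. Reads were trimmed with Trimmomatic 0.30, aligned with STAR 2.4.2a to GRCm38 and counted in GENCODE vM15 exons with featureCounts, per the submitters' processing notes and the study's methods. The authors deposited raw read counts per gene, not normalized. The strand setting and the handling of reads that align to several places are not given in the sources used here. Ages and replicates came from the sample labels, 0 rows named no gene and 0 columns belonged to other samples.

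Counts were analysed with edgeR 4.0.16 in R 4.3.3 (a filter of over 5 reads and over 1 CPM of total counts in at least 1 pool, TMM, glmQLFit and glmQLFTest, no covariate, Benjamini-Hochberg over 13692 genes, FDR threshold 0.05). Alternatives were limma 3.58.1 (voom with sample quality weights), edgeR's likelihood ratio test, DESeq2 1.42.0, other scalings and filters, offsets for GC content and length, the replicate number as a block, and each pool left out. The fits were tested on simulated data. For a single gene an exact permutation test over 4 pools cannot give a two-sided p below 0.333, so none was run.

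Each pool counts as 1 replicate, and a check for repeated libraries found none (chi-square per gene 9.42 between the young and 7.11 between the old pools). Depth was between 11662654 and 15975698 counts, and a floor of 3 counts was 0.198 to 0.245 normalized CPM.

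Positions, exon lengths, coding sequences and shared 50-nt stretches came from GENCODE vM21 on GRCm38, matched by symbol (47976 of 52459 symbols). Members and gene lists were chosen with earlier results of these data known. Genes named are the 7 members, family genes and neighbours that were tested, at most 5 genes of lowest p per list, and the 5 most like Ly6e. Olfm4, Apoa1, Apoa4, Vil1, Retnlb, Ptprc, the endothelial genes at 0, genes too low to be tested, and neighbours near 0 were named beside that rule, after their values were seen. A gene of the regenerative epithelium list is not reported here.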

Additional observations from a re-analysis of the deposited data

How the results depend on the processing

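Ly6e and Lypd8 were chosen on this comparison, so their values under the alternatives describe the settings and are no support for a difference. Over the 14 alternatives the log2 fold change of Ly6e ranged from 1.27 to 1.86 and that of Lypd8 from 0.20 to 0.97. Lypd8 was not among the genes called with DESeq2 (0.69), total counts (0.20) and offsets for GC content and length (0.61). Leaving out each pool gave 0.35 to 0.97 for Lypd8 and 1.69 to 1.85 for Ly6e. Against 223 genes called higher and 86 lower, the likelihood ratio test called 375 and 236, DESeq2 147 and 50, total counts 96 and 4536, no filter 357 and 197, and the offsets 133 and 51. Leaving out 1 pool gave 123 to 478 higher and 28 to 250 lower, namely 123 and 28 without ISC_2mth replicate 1, 402 and 250 without ISC_22mth replicate 1, and 478 and 232 without ISC_22mth replicate 2. A lone pool is then assumed to vary like the other age. GPI anchor genes called numbered 13 with total counts, and 0 to 1 without 1 pool (Pign without ISC_22mth replicate 1, Pigf without ISC_22mth replicate 2). The cause of these changes was not tested. Other family genes and neighbours of Ly6e called numbered 0 in all 14, and most of these settings tested few such genes.

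With the replicate block 407 genes were called higher and 217 lower, Ly6e had a log2 fold change of 1.77 and Lypd8 0.66. Deviations of same-numbered pools correlated at -0.0031 over the genes tested, which does not show whether such pools were handled together. Pools of different ages are different animals, so the fit is not a paired design. The cause of the larger number of calls was not tested.

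With 2 pools per age and at most 3 reads in every library for 28 of the 37 other family genes, depth limits what can be seen outside Ly6e and Lypd8. Offsets used the 96.7% of genes with a known GC content and length.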

Other observations

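Lypd8 works at the gut lumen together with other proteins that hold or kill bacteria there. Of 9 such genes tested, 0 were called by edgeR's quasi-likelihood test, against 2.26% of all genes tested. In that test 4 of the 9 had an unadjusted p under 0.05, against 16.9% of all genes tested. All 9 had a log2 fold change above 0, with a median of 0.65. Reg3a and Retnlb passed the filter through old pools alone, so their sign follows from it, and the median of the other 7 was 0.42. The median of the list was 0.14 when libraries were scaled by total counts, 0.19 without ISC_22mth replicate 1 and 0.33 without ISC_22mth replicate 2. It was 0.81 without ISC_2mth replicate 1 and 0.50 without ISC_2mth replicate 2. With the replicate block and with no filter 4 of the 9 were called higher (Itln1, Lyz1, Pigr and Reg3b), against 2.97% and 1.44% of all genes tested. With total counts 2 were called lower, against 33.1% of all genes tested. The old pools disagreed on which genes were high. Reg3b, a lectin that kills bacteria, had 148 and 100 reads in the young and 131 and 328 in the old pools, with a log2 fold change of 1.12 (SE 0.32, FDR 0.073). Pigr, the receptor that carries antibodies into the lumen, had 15463, 16368, 14580 and 21586 reads, with a log2 fold change of 0.42 (SE 0.15, FDR 0.15). Both were highest in ISC_22mth replicate 2. Lyz1, the lysozyme of Paneth cells, had 4509, 3421, 9910 and 2485 reads, with a log2 fold change of 0.83 (SE 0.33, FDR 0.20). Itln1, a lectin of the mucus, had 3479, 2927, 6170 and 2604 reads, with a log2 fold change of 0.65 (SE 0.22, FDR 0.13). Lyz1 and Itln1 were highest in ISC_22mth replicate 1, as Lypd8 was. Without ISC_22mth replicate 1, the log2 fold changes of Reg3b, Pigr and Lyz1 were 1.68, 0.72 and -0.40. Without ISC_22mth replicate 2, that of Lyz1 was 1.48 and that of Itln1 was 1.11.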
